A study of Mus musculus with 6 samples.

Results

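The genes described here encode the enzymes of glycolysis, the transporters and switches that set its flux, and other targets of the hypoxia response, 35 genes in all out of 34981 in the table. They were listed by name as members of these pathways, with earlier results of these data known, and they comprise 16 glycolytic enzyme genes from hexokinase to lactate dehydrogenase, 5 genes of transport and flux control, and 14 other hypoxia targets. All 35 were found in the table by Ensembl identifier, and all 35 were among the 12929 genes with enough counts to be tested. The symbol Aldoa occurs at 2 identifiers, and the values below are those of ENSMUSG00000030695, the one with more counts. The other was not tested.

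Messenger RNA was sequenced from B16F10 cells, an established mouse melanoma line, which formed spheroids in Matrigel, a gel of basement membrane proteins. The BMP2 group of 3 libraries received 100 ng/ml BMP2 for 10 days, and the PBS group of 3 libraries, which the sample titles call untreated, received the vehicle PBS for the same 10 days. BMP2 is a bone morphogenetic protein, a secreted signal that acts through SMAD transcription factors. The experiment was carried out in 3 batches with 1 library of each group, so libraries are named by group and batch, such as BMP2 1 and PBS 1. Every culture held the same single cell line in the same gel, and neither oxygen tension nor metabolites were measured here. In such bulk RNA, a lower level in every cell cannot be told apart from fewer cells expressing a gene.

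Glycolysis splits glucose into pyruvate in a chain of enzyme steps, and lactate dehydrogenase turns pyruvate into lactate, which leaves the cell through monocarboxylate transporters. When oxygen is low, prolyl hydroxylases stop marking the alpha subunit of hypoxia-inducible factor (HIF) for destruction by the VHL ubiquitin ligase, and HIF joined to ARNT binds promoters and enhancers at the short core motifs ACGTG or GCGTG. HIF raises many glycolytic enzymes together with genes for mitophagy, collagen maturation, acid balance and its own hydroxylases, and spheroids of tumour cells can form oxygen gradients towards their core.

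Libraries held 27821900 to 36856500 estimated counts. PBS 1 stood apart from the rest: its score on principal component 1 (50% of the variance) was -79.7, where the other 5 libraries scored from -16.8 to 55.5. All 7 melanocyte lineage markers were detected, at a summed level of 28870 to 39071 CPM (counts scaled to library size) in BMP2 libraries and 23669 to 26310 CPM in PBS libraries, and all 7 were higher with BMP2 in all 3 batches. Their part in the differences below was not tested. Summed marker levels of other cell types were at most 8.52 CPM for fibroblasts, 2.16 for endothelial cells and 5.53 for leukocytes. Id1, a direct target of BMP signalling, stood at 8.56, 22.4 and 26.3 CPM in BMP2 libraries 1 to 3, against 3.32, 2.16 and 0.419 CPM in PBS libraries 1 to 3.

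With BMP2, most of the 35 genes stood lower than with PBS, by a modest amount that varied between batches. Their log2 fold change of BMP2 over PBS was below 0 for 33 of 35, with a median of -0.39, while the median of all tested genes was 0.01. The count below 0 was 31 when libraries were scaled by totals, which shifts all genes to a median of 0.13. It was 29 under quantile normalization, which fixed Gapdh, the top gene of every library, at 0. Within batches, 20 of the 35 were lower with BMP2 in all 3 batches, against 21.1% of all tested genes, and 1 was higher in all 3, against 22.8%. The 3 libraries of BMP2 did not overlap those of PBS for 4 of the 35, Higd1a, Ankrd37, Aldoa and Eno2, all lower with BMP2, while 5.72% of all tested genes were lower without overlap and 6.42% higher. The plot of differences within each batch shows all 35.

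**Figure D1:**
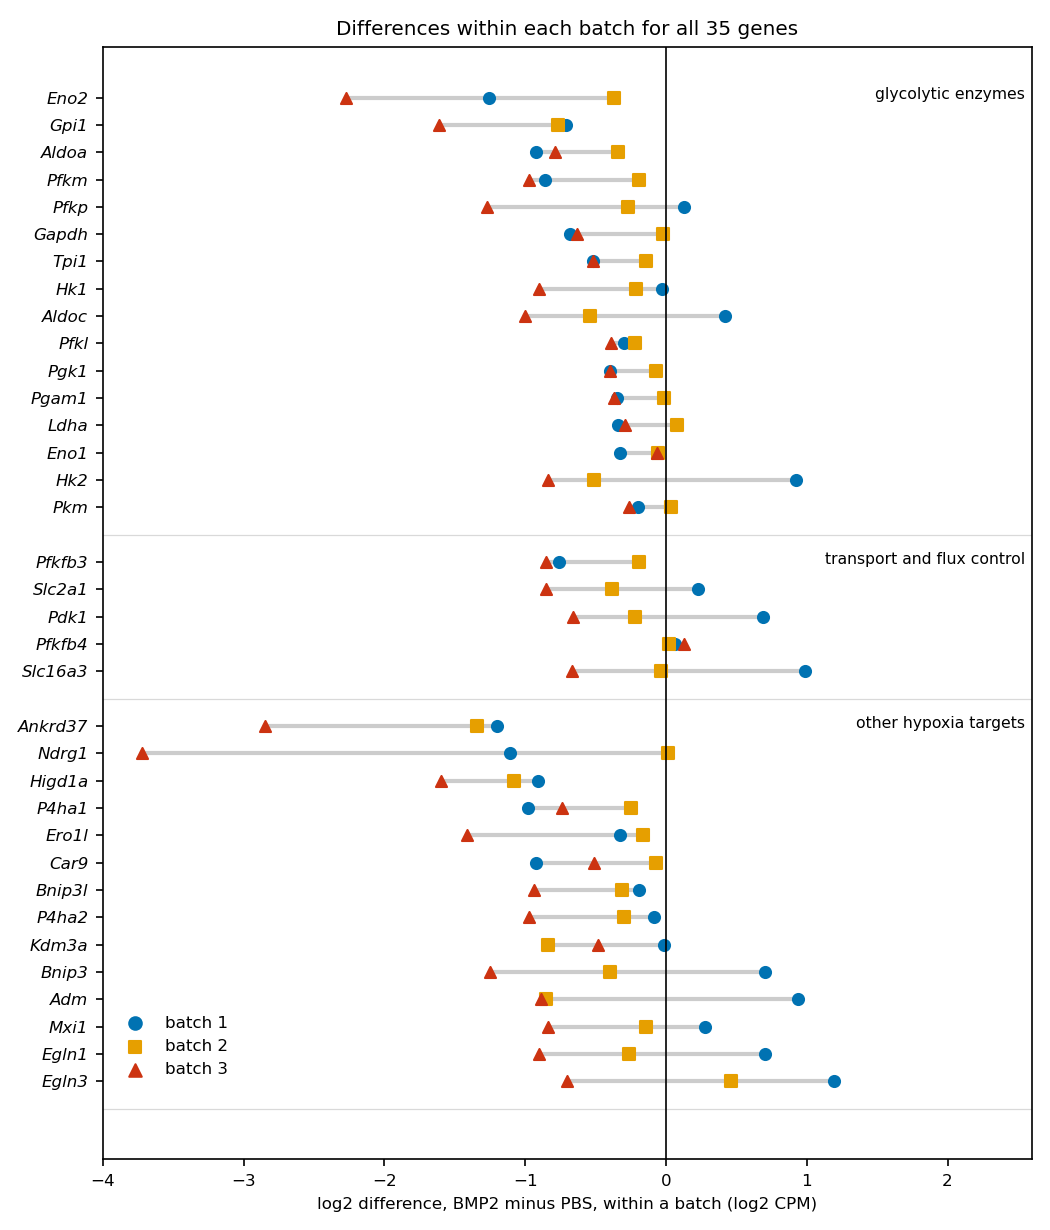
Log2 difference between the BMP2 and the PBS library of the same batch (x axis, log2 CPM) for each of the 35 genes (rows), grouped by role and ordered within a group by their mean. Circles, squares and triangles are batches 1, 2 and 3 and grey lines span the 3 values. The triangles lie farthest to the left for 25 of the 35 genes, and 10 genes have the circle alone to the right of 0.

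Few of these differences passed a test of single genes. In edgeR's quasi-likelihood test with Benjamini-Hochberg adjustment over all 12929 genes and a threshold of 0.05, 0 of the 35 genes passed in either direction, where 0.0387% of all genes were called lower and 0.00773% higher. At an unadjusted p under 0.05 there were 3 members, all lower, where 2.85% of all genes were lower and 2.54% higher. The Wald test of DESeq2 also called 0 of the 35, where it called 0.526% of all genes lower and 0.48% higher. With batch as a block in the edgeR model, 1 of the 35 fell, Higd1a, where 0.364% of all genes were called lower and 0.371% higher. In that model 14 of the 35 had an unadjusted p under 0.05, all of them lower, where 8.89% of all genes were lower and 8.12% higher. DESeq2 with the block called 8 of the 35 lower, namely Gpi1, Pfkm, Aldoa, Eno2, Pfkfb3, Higd1a, Ankrd37 and P4ha1, where it called 3.19% of all genes lower and 1.86% higher. The edgeR model leaves 4 residual degrees of freedom without the block and 2 with it.

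Among the other hypoxia targets, Higd1a (ENSMUSG00000038412, GRCm38 chr9:121848563-121858362), which encodes a hypoxia-induced protein of the inner mitochondrial membrane, had the smallest p of the 35. It stood at 366, 291 and 154 CPM in BMP2 libraries 1 to 3, against 690, 614 and 469 CPM in PBS libraries 1 to 3. Every BMP2 library lay below every PBS library, and the log2 differences in batches 1 to 3 were -0.91, -1.08 and -1.60. The log2 fold change was -1.13 (SE 0.327, edgeR adjusted p 0.624) without the block and -1.20 (SE 0.173, edgeR adjusted p 0.0436) with it. The blocked call was lost without batch 2 (0.166) or batch 3 (0.0546) and when libraries were scaled by totals (0.0893) or by quantiles (0.0709). The log2 fold change was then -1.26 without batch 2, -1.0 without batch 3, -1.08 with totals and -1.10 with quantiles.

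Ankrd37 (ENSMUSG00000050914, GRCm38 chr8:45996902-46005707), an ankyrin repeat gene and a HIF target, had the lowest log2 fold change of the 35. Its levels were 27.9, 22.2 and 5.77 CPM in BMP2 libraries 1 to 3, against 64.3, 56.3 and 41.9 CPM in PBS libraries 1 to 3. The groups did not overlap, and BMP2 3 was the lowest library by far. The log2 fold change was -1.54 (SE 0.506, edgeR adjusted p 0.757), and -1.77 with the block (SE 0.328, edgeR adjusted p 0.0798). P4ha1 (ENSMUSG00000019916), a catalytic subunit of collagen prolyl hydroxylase, stood at 399, 346 and 209 CPM with BMP2 against 787, 411 and 351 CPM with PBS. Its BMP2 1 library exceeded PBS 3, so the groups overlapped, although BMP2 was lower within each batch (log2 fold change -0.70, SE 0.364, edgeR adjusted p 0.883). Its partner P4ha2, the other collagen prolyl hydroxylase subunit, was at 209, 167 and 85 CPM with BMP2 and 222, 205 and 166 CPM with PBS, with log2 differences of -0.084 in batch 1 and -0.97 in batch 3.

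The promoters of the members are shown for 5 of them. Higd1a and Ankrd37 had the lowest log2 fold changes among the other targets in the fit without the block. Gpi1, Pgk1 and Ldha are enzymes of the early, middle and last steps. Each line gives the 250 bases before the RefSeq start on GRCm38.p6, 5′ to 3′ on the strand of the gene, with every ACGTG or GCGTG on either strand in capitals. The windows are chr9:121857797-121858046 on the minus strand for Higd1a, chr8:45999851-46000100 on the minus strand for Ankrd37, chr7:34230337-34230586 on the minus strand for Gpi1, chrX:106186850-106187099 on the plus strand for Pgk1 and chr7:46845554-46845803 on the plus strand for Ldha.
Higd1a: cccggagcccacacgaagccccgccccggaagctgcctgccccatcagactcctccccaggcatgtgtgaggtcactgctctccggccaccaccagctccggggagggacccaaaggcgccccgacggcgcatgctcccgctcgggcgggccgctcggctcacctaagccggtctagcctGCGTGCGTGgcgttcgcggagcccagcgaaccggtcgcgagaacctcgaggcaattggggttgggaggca
Ankrd37: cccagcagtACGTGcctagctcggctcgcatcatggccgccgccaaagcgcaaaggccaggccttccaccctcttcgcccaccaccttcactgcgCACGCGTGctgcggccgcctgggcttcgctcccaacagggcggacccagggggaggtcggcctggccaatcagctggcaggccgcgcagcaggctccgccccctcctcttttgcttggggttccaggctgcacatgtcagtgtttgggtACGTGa
Gpi1: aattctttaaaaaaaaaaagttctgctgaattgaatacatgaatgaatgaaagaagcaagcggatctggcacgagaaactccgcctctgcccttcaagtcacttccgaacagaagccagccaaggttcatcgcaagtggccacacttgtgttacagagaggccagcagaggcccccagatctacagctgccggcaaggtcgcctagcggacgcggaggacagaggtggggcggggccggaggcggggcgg
Pgk1: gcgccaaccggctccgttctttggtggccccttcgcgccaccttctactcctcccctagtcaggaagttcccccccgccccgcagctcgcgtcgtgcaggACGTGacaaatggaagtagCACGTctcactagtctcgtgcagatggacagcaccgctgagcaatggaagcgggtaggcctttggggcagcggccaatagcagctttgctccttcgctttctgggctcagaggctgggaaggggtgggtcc
Ldha: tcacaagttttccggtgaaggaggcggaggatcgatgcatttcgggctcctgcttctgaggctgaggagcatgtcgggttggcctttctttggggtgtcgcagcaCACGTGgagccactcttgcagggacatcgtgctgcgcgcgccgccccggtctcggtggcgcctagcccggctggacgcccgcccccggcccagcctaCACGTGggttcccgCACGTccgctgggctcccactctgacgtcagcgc
The Higd1a window holds 2 overlapping copies of GCGTG, that of Ankrd37 holds 2 matches to each motif, and that of Pgk1 holds ACGTG once on each strand. In the Ldha window there are 5 matches to ACGTG, since each of its 2 copies of the palindrome CACGTG, the E-box, counts on both strands. The Gpi1 window has none. The RefSeq start of Ankrd37 lies 5857 bases from the GENCODE gene start and that of Ldha 4329 bases, so these windows belong to inner starts.

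Over the 33 members with such a window, 26 (78.8%) held ACGTG or GCGTG, against 57.6% of the 9595 tested genes with a window. By role these were 10 of 16 enzymes (62.5%), 5 of 5 transport and flux genes (100%) and 11 of 12 other targets (91.7%). Their median GC content was 57, 66.4 and 68.6%, against 60% over tested genes. ACGTG was in 16 members (48.5%) against 22.1% of tested genes, and GCGTG in 18 members (54.5%) against 46.4%. CACGTG, which overlaps ACGTG, was in 3 members (9.09%) against 8.45%. Among the genes printed above, log2 fold changes were -1.54 for Ankrd37, -1.13 for Higd1a, -0.89 for Gpi1, -0.29 for Pgk1 and -0.17 for Ldha. Whether motif matches go with the fold changes was not tested. A match describes letters in a window and not a bound site.

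Of the remaining hypoxia targets, Bnip3l, Car9, Ero1l and Kdm3a were lower with BMP2 in all 3 batches, and Bnip3, Egln1, Egln3, Ndrg1, Adm and Mxi1 had differences of both signs between batches. Bnip3, a mitophagy receptor, was at 1696, 1128 and 509 CPM with BMP2 and 1042, 1488 and 1209 CPM with PBS. BMP2 was higher in batch 1 and lower in batches 2 and 3, and BMP2 libraries held both the highest and the lowest value. Its homologue Bnip3l, also a mitophagy receptor, was at 675, 497 and 262 CPM with BMP2 and 770, 617 and 503 CPM with PBS, lower in each batch with overlapping groups. Of their 31-base words, 20.3% for Bnip3 and 23.7% for Bnip3l occur in other genes, which makes their levels less certain.

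Egln1 and Egln3 encode HIF prolyl hydroxylases, which are themselves HIF targets. Egln1 was at 245, 416 and 222 CPM with BMP2 and 152, 499 and 413 CPM with PBS. Egln3 was at 33, 47.6 and 15.9 CPM with BMP2 and 14.4, 34.6 and 25.8 CPM with PBS, and with a log2 fold change of 0.37 (SE 0.439, edgeR adjusted p 0.896) it was 1 of the 2 members above 0. Both were higher with BMP2 in batch 1 and lower in batch 3. Car9, the cell-surface carbonic anhydrase that is a classic hypoxia marker, was low, at 16.2, 18.9 and 11.2 CPM with BMP2 and 30.7, 19.8 and 16 CPM with PBS. Its groups overlapped although BMP2 was lower within each batch.

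Ero1l, an oxidase of disulfide formation in the endoplasmic reticulum, was at 3467, 3726 and 1373 CPM with BMP2 and 4373, 4150 and 3637 CPM with PBS. BMP2 3 was far below the other 5 libraries (log2 difference -1.41 in batch 3, against -0.33 and -0.16 in batches 1 and 2). Kdm3a, a histone demethylase, ranged from 77 to 209 CPM with BMP2 and from 138 to 211 CPM with PBS, and Mxi1, a MYC antagonist, from 73.4 to 139 CPM with BMP2 and from 90.6 to 153 CPM with PBS. Adm, the vasodilator adrenomedullin, was at 2.74, 2.8 and 2.57 CPM with BMP2 and 1.4, 5.11 and 4.82 CPM with PBS. Ndrg1, a stress-responsive gene, was near the detection limit, with 64, 35 and 1 estimated counts in BMP2 libraries and 147, 36 and 35 in PBS libraries. Its log2 fold change of -1.09 (SE 1.12, edgeR adjusted p 0.889) and its batch 3 difference therefore depend on the prior count of the model.

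**Figure D2:**
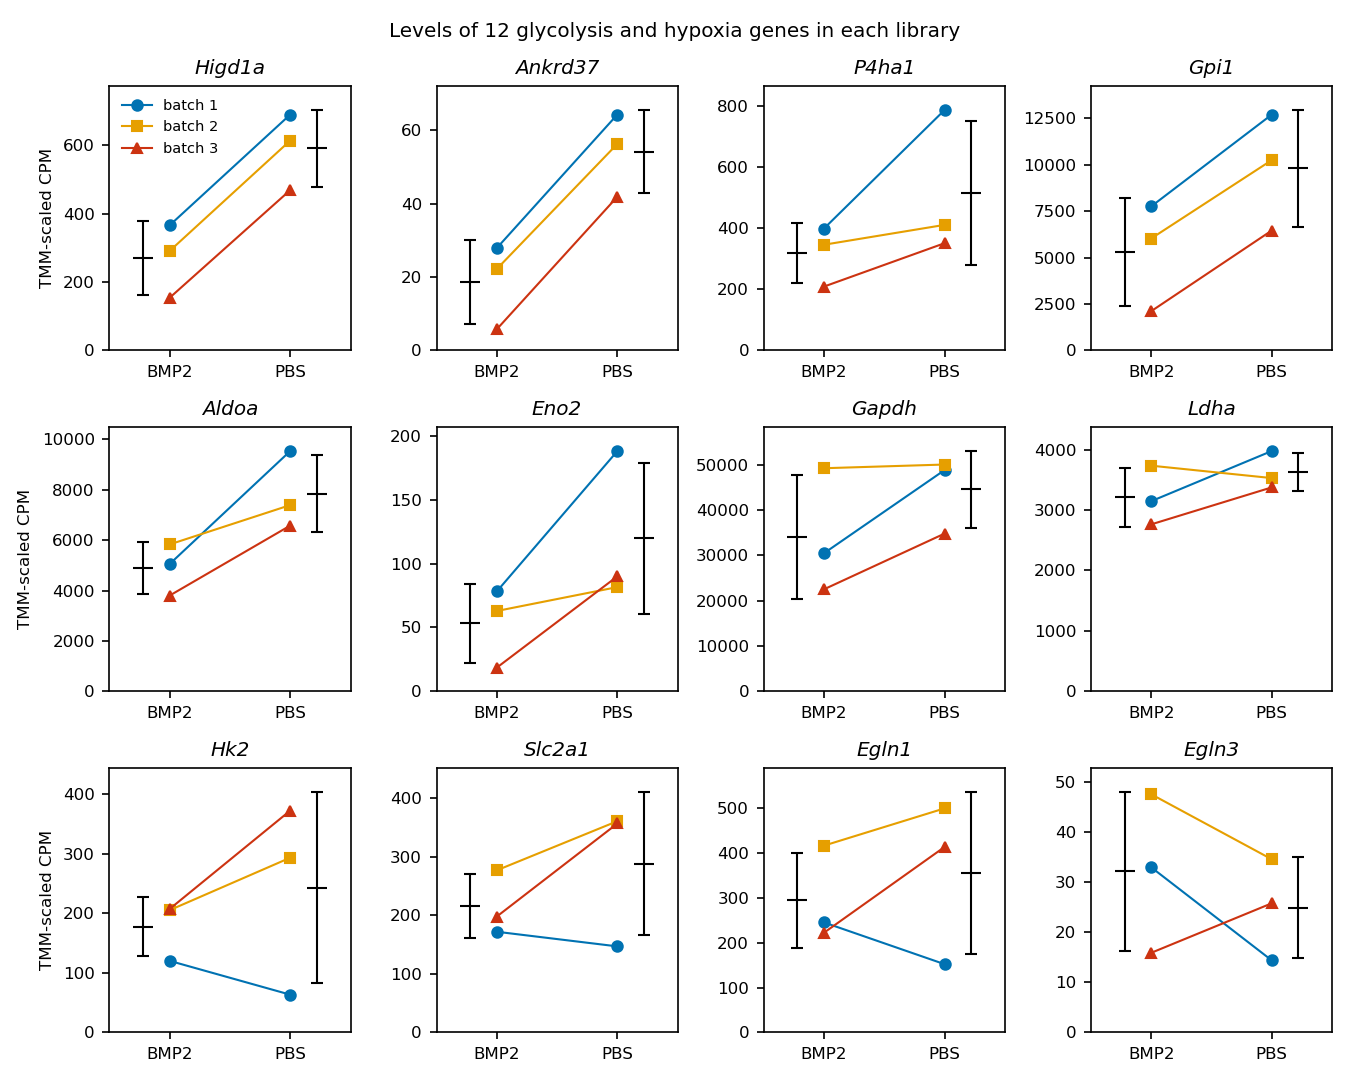
TMM-scaled CPM (y axis, from 0) of 12 members in BMP2 (left) and PBS (right) libraries. Lines join the 2 libraries of a batch, and black marks give the group mean ± SD over 3 libraries. Higd1a, Ankrd37, Aldoa and Eno2 show BMP2 libraries all below PBS libraries, while Hk2, Slc2a1, Egln1 and Egln3 have a line of batch 1 that runs the other way.

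Among the glycolytic enzymes, Eno2, Gpi1, Aldoa and Pfkm had the lowest log2 fold changes, from -1.17 to -0.63, and 11 of the 16 were lower with BMP2 in all 3 batches. Of the 16, 0 passed in either edgeR fit, where 0.0387% of all genes were called lower and 0.00773% higher without the block. With the block 0.364% of all genes were called lower and 0.371% higher. At an unadjusted p under 0.05 there was 1 enzyme without the block and 6 with it, all lower. Over all tested genes, 2.85% were lower and 2.54% higher without the block, and 8.89% and 8.12% with it. All 16 log2 fold changes were below 0 in the fit without the block, with a median of -0.38. Under quantile normalization Eno1 was at 0.046, Ldha at 0.0072 and Gapdh at 0. The 0 of Gapdh was fixed in advance, since that method gives the top gene of every library the same value. With the block, Hk2 was at 0.039 without batch 2 and at 0.20 without batch 3. Aldoa (ENSMUSG00000030695, GRCm38 chr7:126795234-126800751), which cleaves fructose bisphosphate, stood at 5049, 5826 and 3799 CPM with BMP2, against 9528, 7385 and 6573 CPM with PBS. The groups did not overlap, and the log2 fold change was -0.68 (SE 0.255, edgeR adjusted p 0.852, and 0.137 with the block). Eno2 (ENSMUSG00000004267), the neuronal enolase, was at 78.2, 62.9 and 18.6 CPM with BMP2, against 188, 81.6 and 90 CPM with PBS. Here too the groups did not overlap, with PBS 1 the highest and BMP2 3 the lowest library (log2 fold change -1.17, SE 0.529, edgeR adjusted p 0.883).

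Gpi1 (ENSMUSG00000036427, GRCm38 chr7:34201330-34230336), glucose-6-phosphate isomerase, was at 7754, 6027 and 2111 CPM with BMP2, against 12700, 10248 and 6457 CPM with PBS. Within each batch the BMP2 library was lower, at log2 differences of -0.71, -0.77 and -1.61, although PBS 3 lay below BMP2 1. The log2 fold change was -0.89 (SE 0.47, edgeR adjusted p 0.883) without the block and -1.03 (SE 0.209, edgeR adjusted p 0.0992) with it. Pfkm, the muscle-type phosphofructokinase, was at 54.1, 68.5 and 30.7 CPM with BMP2 and 98.4, 78 and 60.2 CPM with PBS. Its log2 fold change was -0.63 (SE 0.318, edgeR adjusted p 0.883), with overlap of BMP2 2 and PBS 3.

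Of the hexokinases, which phosphorylate glucose, Hk1 was lower with BMP2 in all 3 batches and Hk2 was higher in batch 1. Hk1 was at 242, 357 and 169 CPM with BMP2 and 246, 413 and 316 CPM with PBS, with log2 differences of -0.027 in batch 1 and -0.90 in batch 3. Hk2, the hypoxia-inducible hexokinase, was at 120, 205 and 207 CPM with BMP2 and 63.3, 293 and 372 CPM with PBS, so that PBS 1 was the lowest of all 6 libraries. Pfkp, the platelet-type phosphofructokinase, was at 891, 1100 and 460 CPM with BMP2 and 813, 1322 and 1109 CPM with PBS, and the liver type Pfkl at 386, 528 and 367 CPM with BMP2 and 475, 614 and 480 CPM with PBS. Pfkl had like log2 differences in each batch, -0.30, -0.22 and -0.39. Aldoc, the brain-type aldolase, was at 344, 306 and 229 CPM with BMP2 and 258, 445 and 458 CPM with PBS, with batch 1 against the other two.

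From triose phosphate to lactate, the log2 fold changes lay between -0.39 for Gapdh and -0.13 for Pkm, apart from Eno2 at -1.17. Gapdh, glyceraldehyde-3-phosphate dehydrogenase, was at 30480, 49237 and 22524 CPM with BMP2 and 48825, 50052 and 34815 CPM with PBS. It took 3.2, 4.88 and 2.45% of the counts in BMP2 libraries and 4.25, 4.88 and 3.6% in PBS libraries, the largest share of any gene in each library, and its log2 difference was -0.024 in batch 2 against -0.68 and -0.63 in batches 1 and 3. Ldha, lactate dehydrogenase A, was at 3145, 3733 and 2762 CPM with BMP2 and 3975, 3528 and 3374 CPM with PBS. Pkm, pyruvate kinase, was at 6334, 8583 and 6183 CPM with BMP2 and 7264, 8356 and 7429 CPM with PBS. Both overlapped between groups and were slightly higher with BMP2 in batch 2, by 0.081 for Ldha and 0.039 for Pkm on the log2 scale. Eno1, the main enolase, had a log2 fold change of -0.14 (SE 0.221), Pgam1, phosphoglycerate mutase, -0.23 (SE 0.233), and Tpi1, triose phosphate isomerase, -0.38 (SE 0.242), with edgeR adjusted p of 0.916, 0.887 and 0.883.

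Pgk1, phosphoglycerate kinase, shares 54.7% of its 31-base words with other genes, so its own level is uncertain. It was at 4372, 3975 and 3010 CPM with BMP2 and 5783, 4166 and 3980 CPM with PBS. The processed pseudogene Gm5537 (GRCm38 chr3:58102996-58104247) is a copy of its coding sequence, which spans 1254 bases, and all 1252 bases of the pseudogene were identical to it. The first 60 bases are shown for both genes, in lower case since no base differs.
Pgk1: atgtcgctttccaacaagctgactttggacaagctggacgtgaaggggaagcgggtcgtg
Gm5537: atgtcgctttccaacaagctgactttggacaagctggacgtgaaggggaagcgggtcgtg
Reads within this stretch fit both genes equally, and the estimate divided them, giving Gm5537 2387, 1753 and 1630 CPM with BMP2 and 2478, 1391 and 1912 CPM with PBS. Another copy, the pseudogene Pgk1-rs7 on chromosome 12, was listed at 0.0685, 373 and 0 CPM with BMP2 and 533, 971 and 222 CPM with PBS, a spread between libraries far beyond that of the other two copies. Pgk1 took 63.8 to 65.8% of the sum of the 3 genes in every library, and the sum had a log2 fold change of -0.29 (SE 0.255), equal to that of Pgk1 alone (-0.29, SE 0.248). Gapdh took 99.6 to 99.7% of the sum over its 24 near-identical genes. Other enzymes also share 31-base words with other genes. The shares were 37.1% for Pgam1, 28.5% for Eno1, 27.2% for Gapdh, 21.7% for Pkm, 19.4% for Ldha, 17% for Aldoa and 13.9% for Gpi1. Their levels are less certain too.

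**Figure D3:**
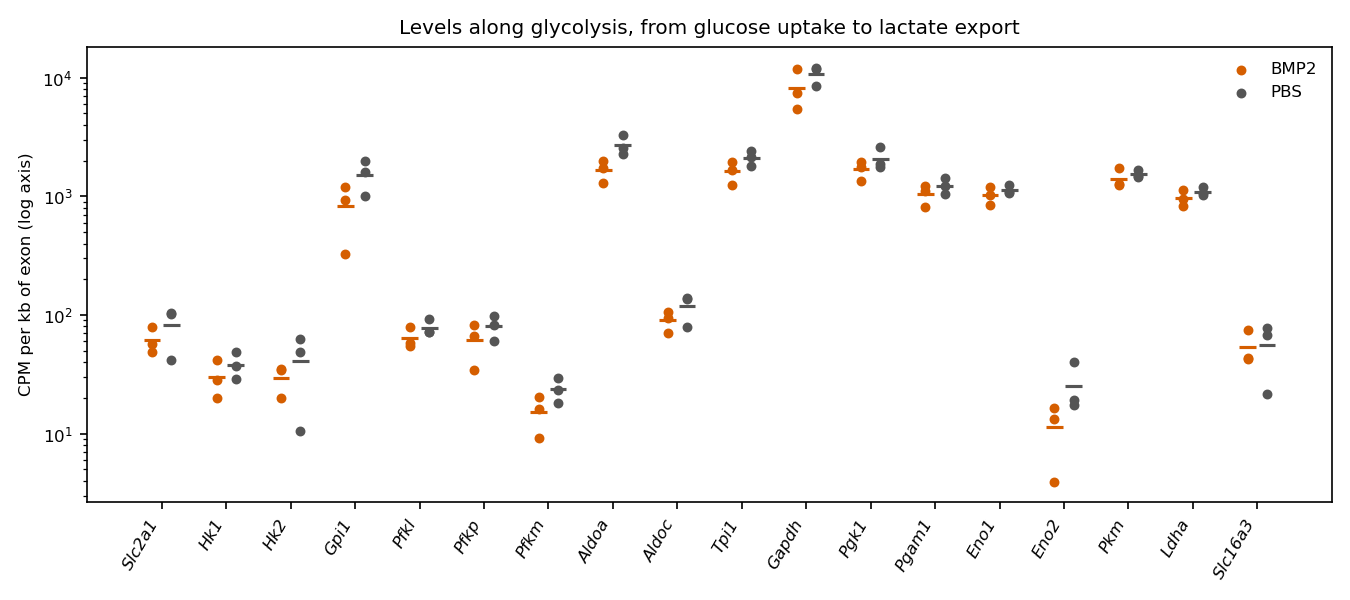
CPM per kilobase of exon (y axis, log scale) for 18 genes in pathway order from glucose uptake to lactate export, with BMP2 libraries on the left and PBS libraries on the right of each gene. Points are libraries and bars are means over 3. With BMP2, Gpi1, Aldoa, Tpi1, Gapdh, Pgk1, Pgam1, Eno1, Pkm and Ldha average 821 to 8246, while the transporters, hexokinases and phosphofructokinases average 15.3 to 63.9.

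Per kilobase of annotated exon, levels differed far more between steps than between treatments. Uptake and the first phosphorylation lay low, where Slc2a1 averaged 61.6 CPM per kilobase with BMP2 and 82.3 with PBS, Hk1 averaged 30 with BMP2 and 38.1 with PBS, and Hk2 averaged 29.7 with BMP2 and 40.6 with PBS. The phosphofructokinases Pfkl and Pfkp lay in the same range, at 63.9 and 61 with BMP2 and 78.3 and 80.7 with PBS. Gapdh had the highest mean, 8246 with BMP2 and 10782 with PBS, and Gpi1 averaged 821 with BMP2 and 1519 with PBS. Aldoa, Pgk1 and Tpi1 followed at 1680, 1687 and 1618 with BMP2 and 2689, 2069 and 2104 with PBS, and their library values overlapped, so their order among themselves is not set. Pkm, Eno1, Pgam1 and Ldha lay between 971 and 1406 with BMP2 and between 1095 and 1536 with PBS. The length is that of all annotated exons of a gene and not of the transcript in use, which affects comparisons between genes but not between groups.

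The 5 genes of transport and flux control lay close to 0 in the middle, with a median log2 fold change of -0.052, although 4 of the 5 were below 0. Under scaling by library totals the median was 0.017. Slc2a1, the glucose transporter GLUT1, was at 172, 277 and 198 CPM with BMP2 and 147, 361 and 357 CPM with PBS, and PBS 1 was again the lowest library. Slc16a3, the lactate exporter MCT4, was at 230, 399 and 228 CPM with BMP2 and 116, 409 and 363 CPM with PBS, and Pdk1, the kinase that shuts pyruvate dehydrogenase, at 249, 200 and 142 CPM with BMP2 and 154, 233 and 225 CPM with PBS. All 3 were higher with BMP2 in batch 1 and lower in batches 2 and 3. Pfkfb3 and Pfkfb4 make and remove the sugar bisphosphate that activates phosphofructokinase. Pfkfb3 was at 46.1, 53.2 and 19.8 CPM with BMP2 and 78.2, 60.6 and 35.8 CPM with PBS, lower in each batch with overlap (log2 fold change -0.55, SE 0.407, edgeR adjusted p 0.883). Pfkfb4 was at 5.51, 4.7 and 6.94 CPM with BMP2 and 5.27, 4.64 and 6.32 CPM with PBS, the sole member higher with BMP2 in all 3 batches, by 0.019 to 0.13 on the log2 scale.

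Set beside each other, the enzymes and the other hypoxia targets had similar medians under TMM scaling and a different spread. The median log2 fold change was -0.38 for the 16 enzymes and -0.44 for the 14 other targets, a difference of 0.058, and with batch as a block it was 0.085. Within batches 1, 2 and 3 the difference of enzymes minus other targets was -0.21, 0.079 and 0.21, a mean of 0.027 ± 0.213 (SD over 3 batches), so the sign was not the same in each batch. It was -0.12 without PBS 1 and 0.30 without BMP2 1. Under quantile normalization the medians were farther apart, -0.14 for the enzymes and -0.37 for the other targets, a difference of 0.23. Enzymes were lower with BMP2 in all 3 batches for 11 of 16 (68.8%) and other targets for 8 of 14 (57.1%). The enzymes ranged from -1.17 to -0.13 and the other targets from -1.54 to 0.37. As shares of all counts, the enzymes summed to 7.41, 9.33 and 5.7% with BMP2 and 9.18, 9.94 and 8.1% with PBS, and the other targets to 0.783, 0.682 and 0.329% with BMP2 and 0.737, 0.818 and 0.736% with PBS. Gapdh alone took 3.2, 4.88 and 2.45% of all counts with BMP2 and 4.25, 4.88 and 3.6% with PBS, a large part of the enzyme sum. The enzyme share was lower with BMP2 in each batch, while that of the other targets was slightly higher in batch 1. In TMM-scaled CPM the other targets summed to 7459, 6879 and 3029 with BMP2 and 8453, 8392 and 7116 with PBS, lower in each batch, so the direction in batch 1 depends on the scaling.

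Batch 3 carried the largest differences. Medians over the 35 genes were -0.30, -0.22 and -0.84 in batches 1, 2 and 3, where those of all tested genes were 0.016, -0.00091 and 0.016. The lowest of the 3 batch differences fell in batch 3 for 25 of the 35 genes (71.4%), against 31.4% of all tested genes. BMP2 3 was the lowest of all 6 libraries for 26 of the 35 (74.3%), against 23% of all tested genes. Without BMP2 3 the median of the 35 was -0.18, that of the enzymes -0.18 and that of the other targets -0.20, each nearer to 0 by more than 1.5 times. The log2 difference of Id1 was also largest in batch 3, at 1.35, 3.34 and 5.78 in batches 1, 2 and 3, though that of the 35 genes was no larger in batch 2 than in batch 1. Id1 itself was close in BMP2 2 and BMP2 3, at 22.4 and 26.3 CPM, while PBS 3 held 0.419 CPM against 2.16 in PBS 2. Whether the strength of the BMP response or another property of batch 3 goes with the levels of the 35 genes was not tested.

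Batch 1 was the batch that most often went the other way. In 10 genes BMP2 was higher in batch 1 and lower in batches 2 and 3, namely Hk2, Pfkp, Aldoc, Slc2a1, Slc16a3, Pdk1, Bnip3, Egln1, Adm and Mxi1. They make up 28.6% of the 35, where 11.7% of all tested genes had that pattern. PBS 1, the library that stood apart, was the lowest of the PBS libraries for 15 of the 35 (42.9%) and the highest for 18 (51.4%), against 42.6% and 42.8% of all tested genes. It was lowest for 7 and highest for 8 of the 16 enzymes, lowest for 3 and highest for 1 of the 5 transport and flux genes, and lowest for 5 and highest for 9 of the 14 other targets. Without PBS 1 the median was -0.40 for enzymes and -0.28 for the other targets, and without BMP2 1 it was -0.66 for the other targets.

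Isozyme proportions were compared as shares of summed CPM per kilobase, and all of them overlapped between groups. Hk2 made up 41.4, 45.1 and 63.7% of Hk1 and Hk2 with BMP2 and 26.9, 50.3 and 62.7% with PBS, a share that differed more between batches than between treatments. Eno2 was 1.94, 1.11 and 0.381% of both enolases with BMP2 and 3.64, 1.38 and 1.74% with PBS, lower in each batch. The share of Pfkfb4 in Pfkfb3 and Pfkfb4 was 15.6, 12.1 and 35.2% with BMP2 and 9.46, 10.6 and 21.5% with PBS, and that of Egln3 in Egln1 and Egln3 was 15.4, 13.4 and 8.83% with BMP2 and 11.4, 8.56 and 7.79% with PBS. These 2 shares were higher with BMP2 in each batch. Pfkp was 34.9 to 47.3% of the phosphofructokinases with BMP2 and 37.6 to 47.9% with PBS, Aldoc 4.48 to 5.73% of Aldoa and Aldoc with BMP2 and 2.35 to 5.85% with PBS, and P4ha1 74.3 to 78.9% of both subunits with BMP2 and 75.2 to 84.3% with PBS.

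**Figure D4:**
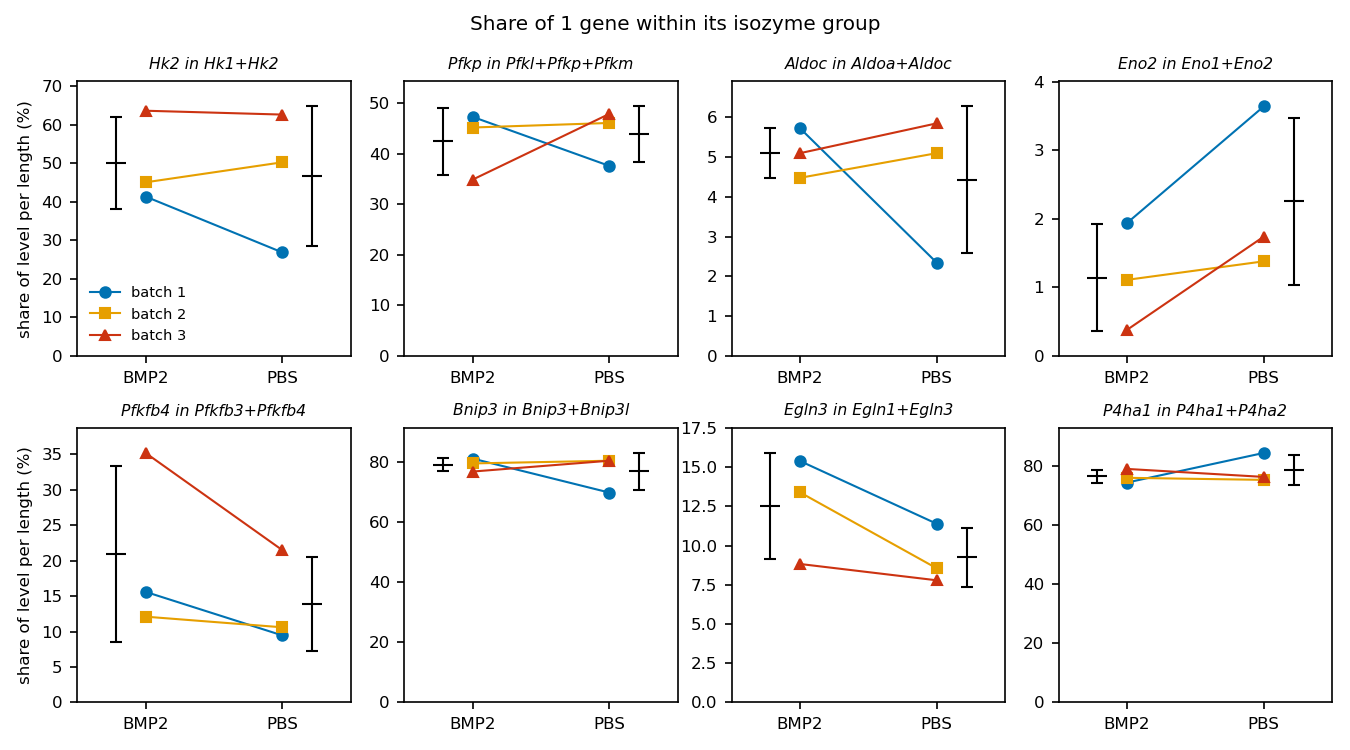
Share of 1 gene in the summed CPM per kilobase of its isozyme group (y axis, percent, from 0) in BMP2 (left) and PBS (right) libraries, with lines joining the libraries of a batch and black marks for mean ± SD over 3 libraries. The Eno2 lines all run higher at PBS, those of Pfkfb4 and Egln3 all run higher at BMP2, and the values of the groups overlap in every panel.

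Among the genes that control the pathway, Hif1a, the oxygen-regulated subunit of HIF, stood higher with BMP2, at 375, 633 and 517 CPM against 231, 331 and 370 CPM with PBS. The groups did not overlap, and the log2 fold change was 0.71 (SE 0.268, edgeR adjusted p 0.855, and 0.106 with the block). HIF is known to be set mainly by protein stability, which RNA does not show. Epas1, the second HIF alpha subunit, was at 9.76, 10.7 and 16.6 CPM with BMP2 and 10.8, 17 and 26.5 CPM with PBS (log2 fold change -0.55, SE 0.364). Arnt, Vhl, Egln2 and Hif1an, which encode the HIF partner, the ubiquitin ligase subunit, the remaining prolyl hydroxylase and the asparaginyl hydroxylase, had log2 fold changes of -0.22, -0.16, -0.053 and 0.095. Arnt2, a paralogue of Arnt, was at 0.719 to 2.3 CPM with BMP2 and 2.3 to 2.7 CPM with PBS, and Hif3a was not tested. Of the 7 tested genes, 0 passed with or without the block. Of all genes, 0.0387% were called lower and 0.00773% higher without the block, and 0.364% and 0.371% with it. An unadjusted p under 0.05 was found for 1 of the 7 without the block and 2 with it. Over all tested genes 17% had such a p with the block, and without it 2.85% were lower and 2.54% higher.

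A further list of 30 hypoxia targets outside the 35, of which 25 were tested, had a median log2 fold change of -0.29. Of the 25, 16 (64%) were lower in all 3 batches, against 21.1% of all tested genes. Without the block 0 of the 25 passed, where 0.0387% of all genes were called lower and 0.00773% higher. At that stage 4 of the 25 had an unadjusted p under 0.05 (10 with the block, all lower). Over all tested genes, 2.85% were lower and 2.54% higher without the block, and 8.89% and 8.12% with it. With the block 0.364% of all genes were called lower and 0.371% higher, and 1 of the 25 fell, Ddit4, an inhibitor of mTORC1. It was at 46.8, 33.6 and 37.9 CPM with BMP2 against 172, 63.7 and 89.9 CPM with PBS, without overlap. Its blocked log2 fold change was -1.35 (SE 0.197, edgeR adjusted p 0.0466, and 0.437 without the block). Vegfa, the angiogenic growth factor, was at 342, 231 and 107 CPM with BMP2 and 370, 330 and 216 CPM with PBS, lower in each batch with overlapping groups. A list of other glycolysis genes, which holds Bpgm and Tigar besides isozymes and transporters, had a median of 0.17 over 11 tested genes. Of the 11, 9 were above 0 and 2 (18.2%) below, Ldhb at -0.042 and Eno3 at -0.34, where 48.9% of all tested genes were below 0. Pgam2 and Gapdhs, a muscle and a sperm form, were under 1 CPM in every library. Pfkfb1 was at 0.586 to 2.02 CPM, and 88.6% of the 31-base words of Eno1b occur in other genes. Pfkfb2, another form of the bifunctional enzyme, was at 11, 12.1 and 15.9 CPM with BMP2 and 6.05, 7.98 and 8.17 CPM with PBS (log2 fold change 0.81, SE 0.257, edgeR adjusted p 0.716, and 0.131 with the block).

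Branches that leave glycolysis lay near 0 as lists. Genes for pyruvate entry into mitochondria had a median of -0.10 over 11 tested genes, and the pentose phosphate genes a median of 0.012 over 7. The lowest of either list were Pdk3, a pyruvate dehydrogenase kinase, at 138, 165 and 75.5 CPM with BMP2 against 264, 270 and 204 CPM with PBS, and Tkt, transketolase, at 215, 265 and 252 CPM with BMP2 against 374, 444 and 425 CPM with PBS. In both the groups did not overlap, with log2 fold changes of -0.96 (SE 0.298) for Pdk3 and -0.76 (SE 0.184) for Tkt, and edgeR adjusted p of 0.698 and 0.412 without the block and 0.0653 and 0.0626 with it. In each list 0 genes passed in either edgeR fit. Of all genes, 0.0387% were called lower and 0.00773% higher without the block, and 0.364% and 0.371% with it. At an unadjusted p under 0.05 there was 1 gene of each list without the block and 2 of each with it. Over all tested genes 17% had such a p with the block, and without it 2.85% were lower and 2.54% higher.

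**Figure D5:**
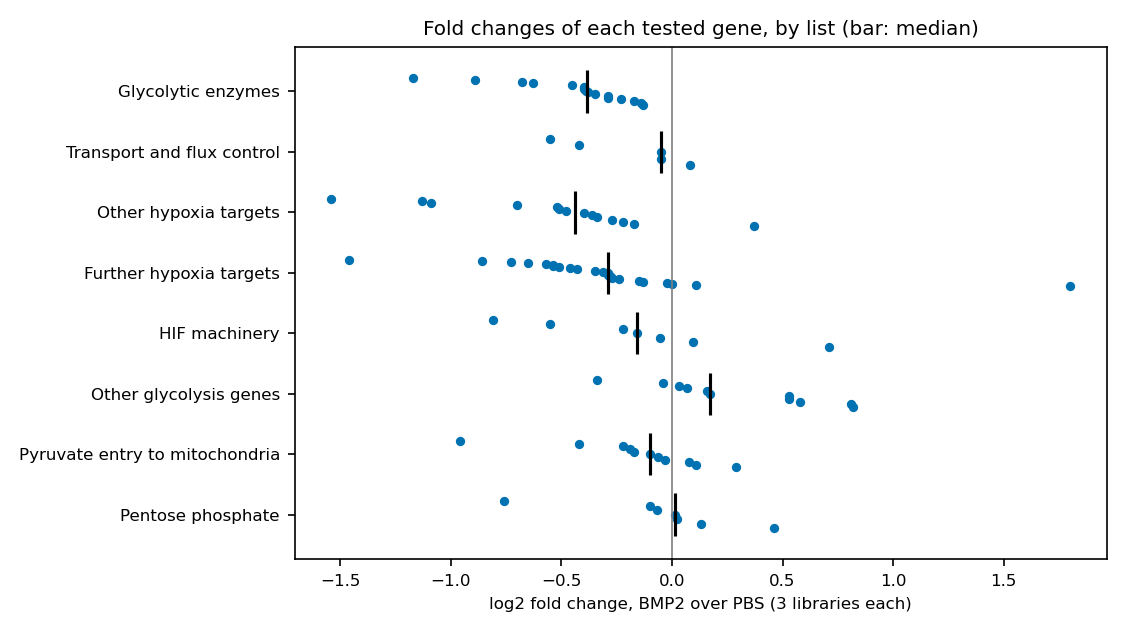
Log2 fold change of BMP2 over PBS (x axis) from edgeR without the block for each tested gene of 8 lists (rows), with a black bar at the median of the list. The bars of the enzymes, the other hypoxia targets and the further hypoxia targets lie at -0.38, -0.44 and -0.29, while that of the other glycolysis genes lies at 0.17.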

How the data were processed

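Messenger RNA libraries (Illumina TruSeq, per the labels' protocols) were quantified with kallisto 0.44.0 against GRCm38.p6, per the submitters' processing notes, and the authors deposited estimated counts per gene. The annotation release, the strand setting and the step to gene level are not given in the sources used. Reads shared by near-identical genes are divided between them by likelihood. Control columns were taken as the samples titled untreated. Of 34981 genes, 34679 matched GENCODE M21 (GRCm38) by identifier. Promoter windows are from RefSeq.

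Counts were rounded and tested with edgeR 4.0.16 in R 4.3.3 (default filter on low counts, trimmed mean of M values or TMM scaling, quasi-likelihood test, Benjamini-Hochberg over 12929 genes, threshold 0.05), with treatment alone in the model. CPM are TMM-scaled, and within-batch differences use a prior count of 2. SE is the absolute log2 fold change over the root of F. The labels tie replicate numbers to batches, and deviations from group means correlated at 0.51, 0.25 and 0.52 within batches, so batch was also fitted as a block, printed where it changes a call. The Wald test of DESeq2 1.42.0 and quantile normalization with limma 3.58.1 were alternatives. Families joined genes sharing at least 80% of 31-base words (Python 3.11.15). Scripts were tested on simulated data.

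The members and lists were chosen with earlier results of these data known. By rule, per-library values were given for called members, the 3 smallest p values of each role, isozymes and preset genes; those of Gpi1, Ero1l, Slc16a3 and Adm, and the non-members Vegfa, Pfkfb2, Pdk3 and Tkt, were chosen after their values were seen. Intervals of single counts are not given, since estimated counts carry no molecular identifiers.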

Additional observations from a re-analysis of the deposited data

How the results depend on the processing

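Of the 35 genes, 22 kept the sign of their log2 fold change in all 22 settings tried, and 12 did not. Gapdh was at 0 under quantile normalization with and without the block and below 0 otherwise. That 0 was fixed in advance, since quantile normalization gives the top gene of every library the same value. The medians of enzymes, other hypoxia targets and all 35 stayed below 0 in each setting. The median of transport and flux control was 0.017 with library totals, 0.053 with totals and the replicate block, 0.018 and 0.041 with the block and batch 2 or 3 left out, and -0.38 to 0.028 without single libraries. The difference of enzymes minus other targets was -0.12 to 0.30 without single libraries and 0.23 with quantiles. The cause of these shifts was not tested.

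Counts of all genes called lower and higher, 5 and 1 in the model without the block, were 4 and 0 with totals, 7 and 2 with quantiles, 16 and 19 with no filter, 4 and 0 at a mean of 100 counts, 68 and 62 with DESeq2, 1 and 0 with copies summed, and 2 to 5 and 0 to 5 without single libraries. With the replicate block they were 47 and 48, and 51 and 47 with DESeq2 size factors, 21 and 33 with totals, 61 and 55 with quantiles, 37 and 47 with copies summed, 412 and 241 with DESeq2, and 308 and 223, 18 and 9, and 103 and 115 with batch 1, 2 or 3 left out. Members called lower numbered 1 with the block, with DESeq2 size factors or copies summed besides, 8 with DESeq2, 6 without batch 1, 0 without batch 2 and 1 without batch 3 (Ankrd37), and 0 without the block or with totals or quantiles.

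Signs turned for single members, and in the settings where they did the member was not called. Slc16a3 was at 0.017 with totals and 0.18 with quantiles. With the block it was at 0.089, 0.074 with DESeq2 size factors, 0.21 with totals, 0.18 with quantiles, 0.087 with copies summed, 0.075 with DESeq2, and 0.16 and 0.47 without batch 2 or 3. Pdk1 was at 0.05 with totals and 0.00071 with quantiles, 0.053 and 0.00071 for the same with the block, and 0.018 and 0.23 without batch 2 or 3. With quantiles, with or without the block, Eno1 was at 0.046, Ldha at 0.0072 and Pfkfb4 at -0.0093. With the block, Egln3 was at -0.11 without batch 1, Hk2 at 0.039 and Adm at 0.0022 without batch 2, and without batch 3 Hk2 was at 0.20, Bnip3 at 0.15, Egln1 at 0.22, Adm at 0.013 and Mxi1 at 0.071. Without single libraries the ranges were -0.44 to 0.26 for Slc16a3, -0.25 to 0.13 for Pdk1, -0.087 to 0.21 for Pfkfb4, -0.61 to 0.17 for Bnip3, -0.64 to 0.064 for Egln1, -0.045 to 0.69 for Egln3 and -2.13 to 0.041 for Ndrg1. Block fits with other scalings or DESeq2 were added after the data were seen. Ndrg1, with 1 to 147 estimated counts per library, was not tested at a mean of 100 counts, and Adm, with 43 to 182, is limited by depth too.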
